A study of Mus musculus with 8 samples.

Results

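The genes described here are the 4 ligands of the glial cell line-derived neurotrophic factor (GDNF) family and the receptors they use: Gdnf, Nrtn, Artn and Pspn, the co-receptors Gfra1, Gfra2, Gfra3 and Gfra4, and the shared receptor Ret. They were taken by name as 9 of the 19356 genes that the array reads through a probe set with exactly 1 gene symbol, and each of the 9 had 1 such probe set. The rule that names them uses no measured value, but the family was picked with earlier results of these data known. The tissue was the caudal end of the urogenital ridge, dissected from mouse embryos at E10.75. The 4 Sox11 knockout (Sox11-/-) and 4 wildtype samples were untreated, came from mice on a mixed genetic background and gave 1 array each. The labels call the samples independent biological replicates. The sources used here do not give whether each held 1 embryo or a pool, nor how the Sox11 allele was made.

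GDNF family ligands are secreted dimers. Each binds a GPI-anchored co-receptor of the GFRα family, and the pair then brings together and activates RET, a receptor tyrosine kinase. In the embryonic kidney, GDNF comes from the metanephric mesenchyme, while RET and GFRα1 sit on the nephric duct, and their signal makes the ureteric bud grow out of the duct at about this stage. RET is also carried by neural crest cells that colonise the gut and by groups of neurons, where the other ligands and co-receptors are mostly used.

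Values are log2 signals made by the authors with RMA, so a difference of 1 is a doubling. Signals of different probe sets are not on a common scale, and no gene is ranked against another by its signal. The arrays correlated with each other at 0.987 to 0.995 across genes. Sox11, the gene targeted, had signals of 9.24, 9.13, 8.93 and 9.12 in Sox11-/- ridges, against 11.76, 11.81, 11.72 and 11.86 in wildtype ridges. The genotypes thus matched their labels. Y-linked genes gave signal in 2 of 4 Sox11-/- arrays and 1 of 4 wildtype arrays. As a guide to the signal of genes that are off, 765 olfactory receptor genes had a median of 5.77 and a 95th percentile of 6.46. Of the nephric duct genes measured, 17 of 18 lay above that percentile, and so did 11 of 11 metanephric mesenchyme genes. Most genes on the array did so too, as the median over all genes was 7.55.

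Of the 9 genes 1 changed between genotypes. Ret rose in Sox11-/- ridges, whereas the mesenchymal ligand Gdnf, its co-receptor Gfra1 and the 6 other ligands and co-receptors did not pass the test. Limma was fitted across all genes, with p-values adjusted by Benjamini-Hochberg and a threshold of 0.05. It called 1 of 9 members higher and 0 lower, while 1.44% of all genes were called, 0.362% as higher and 1.08% as lower. The median difference over the 9 genes, Sox11-/- minus wildtype, was 0.13 on the log2 scale, against -0.00050 over all genes. Of the 9 genes 7 lay above 0, against 49.9% of all genes. The 8 genes that missed the threshold had limma adjusted p-values between 0.210 and 0.901.

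**Figure D1:**
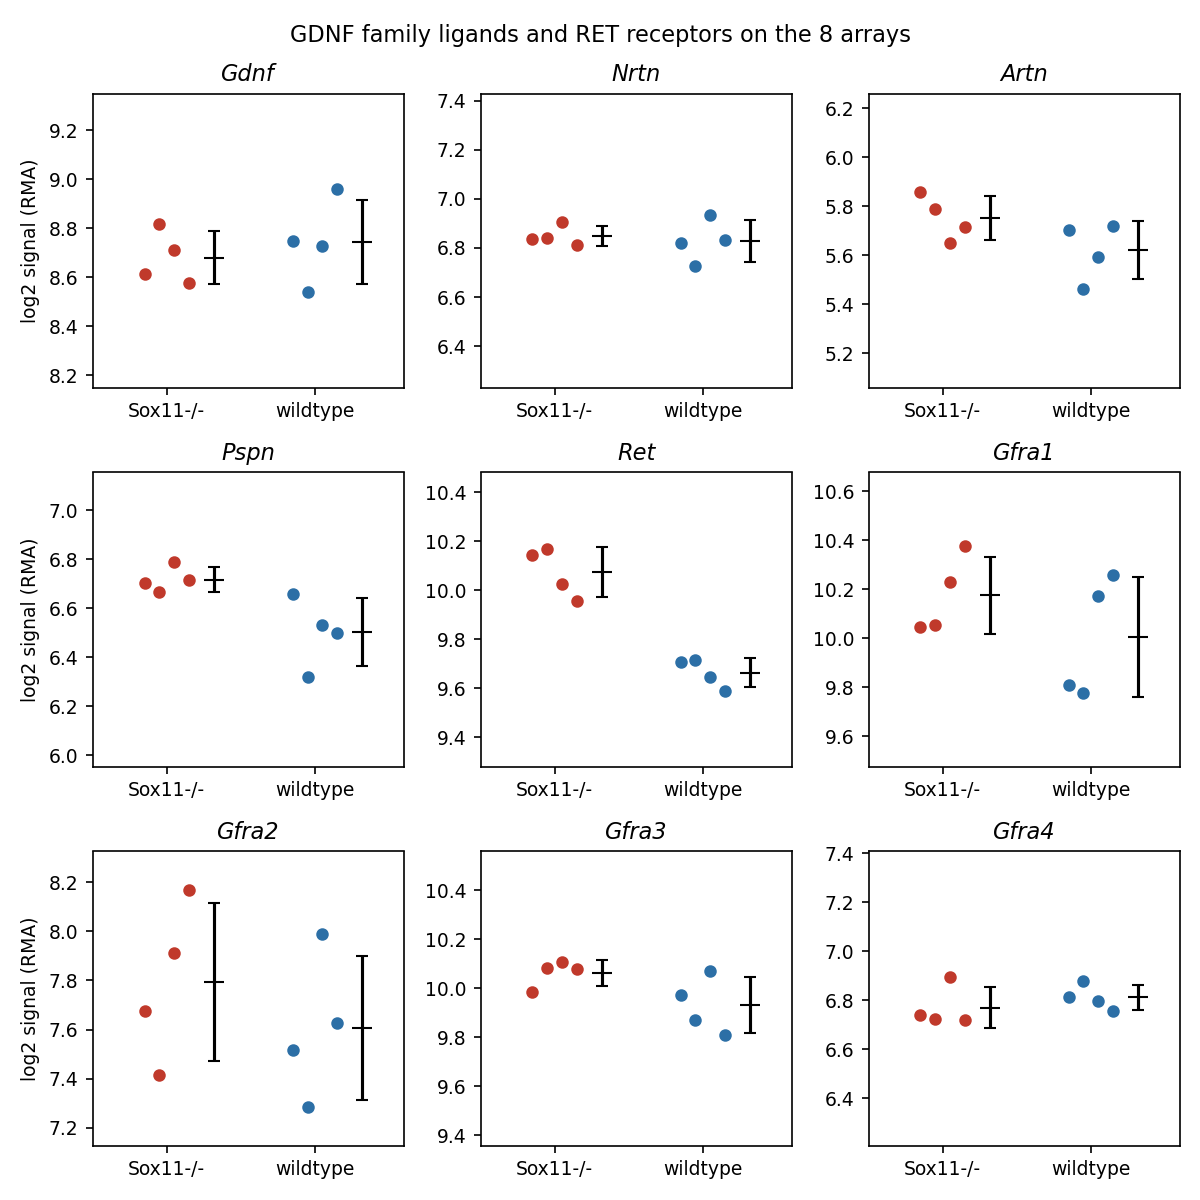
Log2 signal (RMA) of the 9 genes on each array, a panel per gene, with the 4 Sox11-/- arrays on the left (red) and the 4 wildtype arrays on the right (blue), replicates 1 to 4 drawn left to right. Black marks are the mean and SD, each panel spans the same range of log2 units, and only in the panels of Ret and Pspn do all Sox11-/- points lie above all wildtype points.

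Ret encodes the receptor tyrosine kinase through which all 4 ligands signal. Its signal was 10.14, 10.17, 10.02 and 9.95 in the 4 Sox11-/- samples, against 9.71, 9.72, 9.64 and 9.59 in the 4 wildtype samples. Every Sox11-/- array lay above every wildtype array, and the gap between the groups was wider than the range within either one. The means were 10.07 ± 0.10 in Sox11-/- and 9.66 ± 0.06 in wildtype ridges (SD, n = 4 each). The difference was 0.41 (SE 0.07, 95% confidence interval 0.25 to 0.57), which is 1.33-fold, with a limma adjusted p of 0.0220. Among all 19356 genes Ret had the 125th lowest p, and 196 genes had a difference at least as large, 53 of them called higher. Within a genotype Ret varied little, with an SD of 0.083 against a median of 0.121 over all genes. Both Sox11-/- arrays with Y-linked signal (replicates 3 and 4) were the lower ones for Ret. The wildtype array with that signal, replicate 1, was at 9.71, above wildtype replicates 3 and 4 and just below wildtype replicate 2. With Y-linked signal as a covariate the difference was 0.43 (limma adjusted p = 0.0347). In samples of mixed tissue, more cells that carry a transcript and more transcript in each cell cannot be told apart.

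The call of Ret depended on single arrays. The difference stayed between 0.38 and 0.45 when any 1 array was left out, but the adjusted p passed 0.05 without Sox11-/- replicates 1, 2 or 3 (0.0764, 0.0562 and 0.0517) and without wildtype replicates 2 or 3 (0.0538 and 0.0574). A linear model without moderation of the variance also missed it (adjusted p = 0.0692).

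Gdnf, the ligand made by the metanephric mesenchyme, had signals of 8.61, 8.82, 8.71 and 8.58 in Sox11-/- ridges, against 8.75, 8.54, 8.73 and 8.96 in wildtype ridges. The 2 sets of arrays overlapped, and both the lowest and the highest value were wildtype. The difference was -0.06 (SE 0.09, limma adjusted p = 0.763), with a 95% confidence interval from -0.27 to 0.15. That interval, which runs from 0.827-fold to 1.11-fold, leaves room for modest shifts in either direction. Without wildtype replicate 4, the highest array, the difference was 0.0079 and so on the other side of 0.

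The promoters of Gdnf are shown because Sox11 encodes a DNA-binding factor and Gdnf is the ligand on which budding depends. They are the 300 bases from 250 before to 50 after each start that RefSeq gives on GRCm38.p6, both on the + strand of chromosome 15, written 5′ to 3′. The first lies at chr15:7809798-7810097 and the second at chr15:7813477-7813776. Capitals mark TATAAA, which was searched on the strand of the gene and is held by 8.3% of the 32851 promoters of that length in the RefSeq table.
Gdnf start 1: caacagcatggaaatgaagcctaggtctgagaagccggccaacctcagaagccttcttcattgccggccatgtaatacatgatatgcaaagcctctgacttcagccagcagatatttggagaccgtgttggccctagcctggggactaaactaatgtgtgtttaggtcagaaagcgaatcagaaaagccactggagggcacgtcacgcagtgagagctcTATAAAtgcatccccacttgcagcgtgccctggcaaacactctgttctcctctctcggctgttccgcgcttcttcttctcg
Gdnf start 2: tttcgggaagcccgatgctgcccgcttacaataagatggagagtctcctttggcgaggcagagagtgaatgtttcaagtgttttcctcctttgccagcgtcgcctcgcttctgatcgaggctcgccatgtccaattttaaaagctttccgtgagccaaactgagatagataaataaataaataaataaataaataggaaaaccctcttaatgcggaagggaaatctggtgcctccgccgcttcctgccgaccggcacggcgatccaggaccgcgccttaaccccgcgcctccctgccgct
The letters ACAAAG and ACAATG, cores that SOX factors bind, were searched on both strands and do not overlap each other. They are not in either Gdnf window, and at least 1 of them is in 28.6% of all the promoters. In all, 8 promoters of 6 of the 9 genes were searched (Gdnf, Nrtn, Artn, Pspn, Gfra1 and Gfra4). Of these 8, 1 holds ACAAAG and 0 hold ACAATG. The match is in the second promoter of Gfra4. Promoters of Ret, Gfra2 and Gfra3 were not used here. A match or its lack in such a window says nothing of binding.

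The remaining ligands act mostly on neurons. Neurturin, encoded by Nrtn, prefers GFRα2 and supports parasympathetic and enteric neurons. Its gene had signals of 6.84, 6.84, 6.91 and 6.81 in Sox11-/- ridges, against 6.82, 6.73, 6.93 and 6.83 in wildtype ridges. The wildtype values enclosed all the Sox11-/- values, and the difference was 0.02 (SE 0.07, limma adjusted p = 0.901, 95% confidence interval -0.12 to 0.17).

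Artemin, encoded by Artn, binds GFRα3 and guides sympathetic neurons along vessels. Artn had signals of 5.86, 5.79, 5.65 and 5.71 in Sox11-/- ridges and 5.70, 5.46, 5.59 and 5.72 in wildtype ridges. These lay within the range of the olfactory receptor genes, and Artn was the 1 member below their 95th percentile. Its difference of 0.13 (SE 0.08, limma adjusted p = 0.423) therefore comes from a signal that cannot be told apart from that of genes that are off.

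Persephin, encoded by Pspn, binds GFRα4. Pspn had signals of 6.70, 6.66, 6.79 and 6.71 in Sox11-/- ridges, against 6.66, 6.32, 6.53 and 6.50 in wildtype ridges. The groups did not overlap, but the lowest Sox11-/- value (6.665) and the highest wildtype value (6.659) nearly touched. The difference was 0.21 (SE 0.08, 95% confidence interval 0.04 to 0.39) and did not pass (limma adjusted p = 0.210). Of the 9 genes 2, Ret and Pspn, had groups that did not overlap, and over all genes this share was 10.5%. The same 2 had an unadjusted p under 0.05, where 16.7% of all genes did. Pspn lay close to the olfactory receptor genes in signal, which limits what can be said of its difference.

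Gfra1 encodes the co-receptor that GDNF binds on the nephric duct. Its signal was 10.05, 10.05, 10.23 and 10.37 in Sox11-/- ridges, against 9.81, 9.78, 10.17 and 10.26 in wildtype ridges. The groups overlapped, and in each genotype replicates 3 and 4 were the high ones. The SD was 0.16 among the 4 Sox11-/- and 0.25 among the 4 wildtype arrays. The difference was 0.17 (SE 0.12, limma adjusted p = 0.507), with a 95% confidence interval from -0.10 to 0.44 that takes in the estimate for Ret. A rise of Gfra1 as large as that of Ret was thus within the error of these arrays.

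Gfra2, the co-receptor of neurturin, was the most variable of the 9 genes. It had signals of 7.67, 7.41, 7.91 and 8.17 in Sox11-/- ridges, against 7.52, 7.29, 7.99 and 7.63 in wildtype ridges. Its SD within a genotype was 0.31, higher than that of 96.6% of all genes. The difference of 0.19 (SE 0.17, limma adjusted p = 0.616) had a 95% confidence interval from -0.20 to 0.57.

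Gfra3, the co-receptor of artemin, had signals of 9.98, 10.08, 10.11 and 10.08 in Sox11-/- ridges, against 9.97, 9.87, 10.07 and 9.81 in wildtype ridges. Its signal was far above that of olfactory receptor genes on all 8 arrays, unlike that of its ligand gene Artn. The difference was 0.13 (SE 0.07, limma adjusted p = 0.389, 95% confidence interval -0.03 to 0.29).

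Gfra4, the co-receptor of persephin, had signals of 6.74, 6.72, 6.89 and 6.72 in Sox11-/- ridges, against 6.82, 6.88, 6.80 and 6.76 in wildtype ridges. Sox11-/- replicate 3 was the highest array and the other Sox11-/- arrays were the lowest. The difference was -0.04 (SE 0.07, limma adjusted p = 0.782, 95% confidence interval -0.19 to 0.11). Across the 8 genes other than Ret, the upper end of the confidence interval was below the estimate for Ret in 6 and reached it in 2, Gfra1 and Gfra2.

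**Figure D2:**
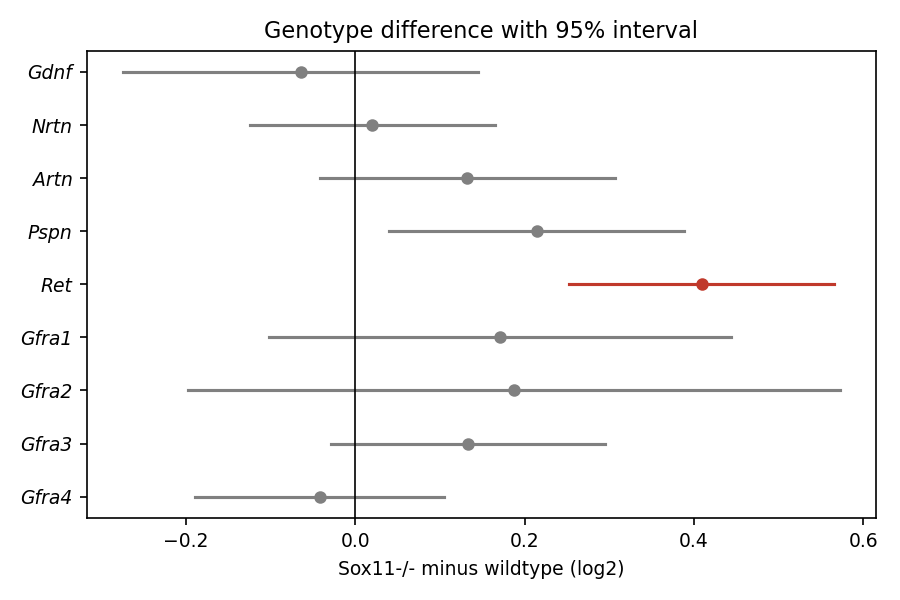
Difference in log2 signal, Sox11-/- minus wildtype, for the 4 ligand genes, Ret and the 4 co-receptor genes, with limma's 95% confidence interval as a bar. Red marks the gene called higher (Ret, 0.41), grey those that did not pass, and the intervals of Gfra1 and Gfra2 are the widest.

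Genes of the cells that carry Ret were set beside it. The list of nephric duct epithelium genes had 0 of 18 measured members called, with 6 higher and 0 lower at an unadjusted p under 0.05. Over all genes 16.7% reached that level in either direction, and the counts of this and the later lists stand beside that share. The median difference of the duct list was 0.16 and 15 of 18 lay above 0. The largest were Calb1, a calcium-binding protein of the duct, at 0.63 (SE 0.14), the cadherin gene Cdh16 at 0.56 (SE 0.20) and the transcription factor gene Lhx1 at 0.42 (SE 0.09), with limma adjusted p-values of 0.0624, 0.202 and 0.0577. Pax2 and Pax8, transcription factors of the duct, were at -0.20 and -0.02 (limma adjusted p = 0.412 and 0.940). The mean signal of the list was 8.87, 8.86, 8.92 and 8.95 on the Sox11-/- arrays, against 8.77, 8.59, 8.84 and 8.69 on the wildtype arrays. The mean thus lay higher on every Sox11-/- array, by 0.17.

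The Ret signal minus that mean was computed on each array to ask whether Ret differed by more than the duct genes together. It was 1.28, 1.31, 1.10 and 1.004 in Sox11-/- ridges, against 0.931, 1.13, 0.805 and 0.896 in wildtype ridges. Only wildtype replicate 2, which had the lowest mean of the duct genes, reached into the Sox11-/- range. The difference was 0.23 with a two-sided exact permutation p of 0.0857 over the 70 splits of the arrays, where the smallest possible p is 0.0286. Ret was therefore not shown to rise by more than the duct list. Over the deviations from the genotype means, Ret correlated with the duct mean at r = -0.448 (Spearman -0.643, 8 arrays), and at -0.487 without the 2 arrays farthest from the median of the duct mean. These values describe the 8 arrays, which share their normalization.

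**Figure D3:**
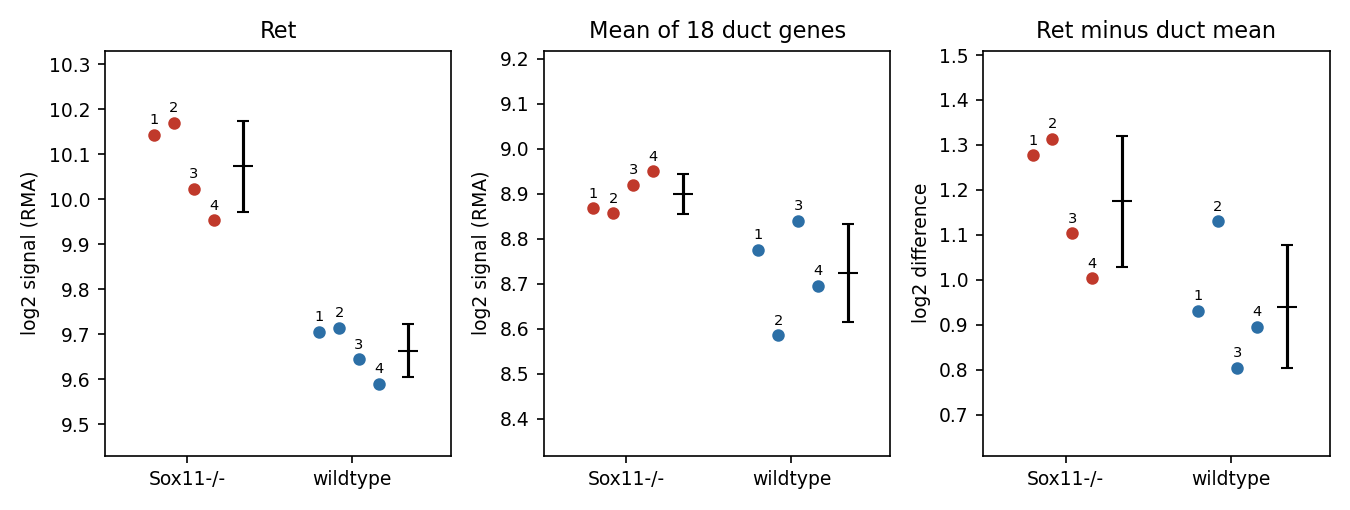
Log2 signal of Ret (left), the mean log2 signal of 18 nephric duct genes (middle) and Ret minus that mean (right) on each array, with Sox11-/- in red and wildtype in blue, and the replicate number above each point. Black marks are mean and SD; the genotypes are apart in the left and middle panels and overlap in the right panel through wildtype replicate 2.

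Markers of neural crest and neurons, other cells that can carry Ret, were counted in the same way, and those of hindgut and cloaca endoderm beside them. Of 9 measured genes of neural crest and enteric progenitors, 1 was called higher, 0 lower and 8 did not pass. The called gene was Erbb3, a neuregulin receptor of crest-derived glia, at 0.36 (SE 0.07, limma adjusted p = 0.0417), and its call was lost in 11 of 18 alternatives (adjusted p up to 0.113), among them each removal of 1 array. Ngfr, a neurotrophin receptor, was at -0.46 and Sox10, the crest transcription factor, at 0.22 (limma adjusted p = 0.0931 and 0.527). The median of the 9 was 0.09, 6 lay above 0, and 1 was higher and 2 were lower at an unadjusted p under 0.05. Foxd3, Phox2a and Tlx2 lay below the 95th percentile of the olfactory receptor genes. The mean signal of the crest list ran from 7.34 to 7.55 in Sox11-/- and from 7.33 to 7.58 in wildtype ridges. Of 11 neuron genes 1 was called lower (Dcx, whose protein binds microtubules in migrating neurons, at -0.93, limma adjusted p = 0.0384), 0 higher and 10 did not pass. The median of the 11 was -0.21, 9 lay below 0, and 3 were lower and 0 higher at an unadjusted p under 0.05. Dcx missed the threshold in 11 of 18 alternatives (adjusted p up to 0.155). The neuron mean ran from 7.23 to 7.43 in Sox11-/- and from 7.29 to 7.68 in wildtype ridges. In the list of hindgut and cloaca endoderm 0 of 8 were called, with 0 at an unadjusted p under 0.05. The median of the hindgut list was 0.01. Over the deviations from the genotype means, Ret correlated with the mean of the hindgut list at r = 0.579 (Spearman 0.548), of the neuron list at 0.490 (Spearman 0.405) and of the crest list at 0.417 (Spearman 0.452), over 8 arrays. Without the 2 arrays farthest from the median of each list mean, r was 0.270, 0.273 and -0.0222. These values are a description of 8 arrays with no test, and the part of these cells in the genotype difference of Ret was not tested.

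Genes downstream of the receptor lay mostly lower in Sox11-/- ridges. Of 14 measured genes that RET signalling induces in the ureteric bud, or that restrain it there, 1 fell, 0 rose and 13 did not pass. Etv5, an ETS transcription factor induced by RET, had signals of 8.68, 8.57, 8.60 and 8.75 in Sox11-/- ridges, against 8.94, 8.96, 9.19 and 9.12 in wildtype ridges. The groups did not overlap, and the difference was -0.40 (SE 0.08, limma adjusted p = 0.0368). Its relative Etv4 was at -0.54 and the transcription factor gene Myb at -0.51 (limma adjusted p = 0.0960 and 0.0608). The median of the list was -0.18, 13 of 14 lay below 0, and 6 were lower and 0 higher at an unadjusted p under 0.05. The gene above 0 was Wnt11, a ligand of the bud tip, at 0.01. The mean of the list ran from 8.78 to 8.83 in Sox11-/- and from 8.92 to 9.14 in wildtype ridges. Etv5 missed the threshold in 13 of 18 alternatives (adjusted p up to 0.101). Some of these genes also answer to FGF receptors. The arrays read the whole list in mixed tissue, and in which cells its genes differed was not tested. The difference between the change of Ret and that of its targets was not tested either.

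**Figure D4:**
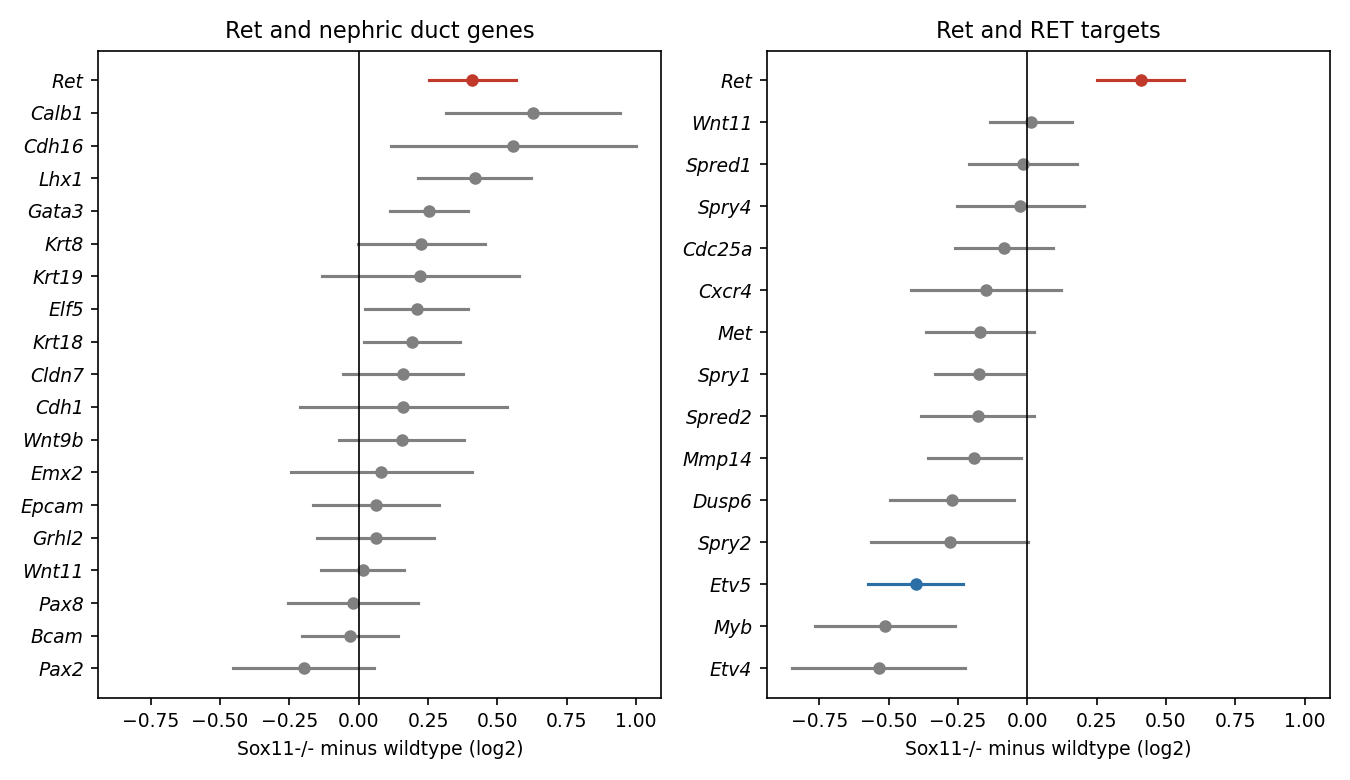
Difference in log2 signal, Sox11-/- minus wildtype, with limma's 95% confidence interval, for Ret and 18 nephric duct genes (left) and for Ret and 14 genes downstream of RET (right). Red is called higher (Ret), blue called lower (Etv5) and grey did not pass; 15 of the 18 duct genes lie above 0 and 13 of the 14 downstream genes below it.

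The genes of proteins that pass the RET signal on inside the cell did not pass the test. Of 21 measured adaptor and transducer genes 0 were called, with 2 higher and 3 lower at an unadjusted p under 0.05 and a median of -0.04. Among them Dok6 and Dok4, docking proteins that bind phosphorylated RET, were at -0.26 and 0.24 (limma adjusted p = 0.176 and 0.196). Plcg1, a phospholipase recruited to RET, was at -0.18 with groups that did not overlap (limma adjusted p = 0.190). Of 4 further receptors or binding partners of the family 0 were called, with 1 lower at an unadjusted p under 0.05. Sdc3, a proteoglycan that binds GDNF, was at -0.26 with each Sox11-/- array below each wildtype array (limma adjusted p = 0.121). Ncam1, an adhesion molecule that serves as another GDNF receptor with GFRα1, was at 0.01, with mean signals of 11.19 in Sox11-/- and 11.18 in wildtype ridges.

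Genes that act upstream of Gdnf in the mesenchyme had 1 of 20 members lower, 0 higher and 19 that did not pass. The called gene was Six2, a transcription factor of nephron progenitors that can activate Gdnf, at -0.48 (SE 0.10, limma adjusted p = 0.0437), and its call was lost in 11 of 18 alternatives (adjusted p up to 0.134). Eya1, a cofactor needed for Gdnf expression, was at -0.28 with all Sox11-/- arrays lower, and missed the threshold (limma adjusted p = 0.0609). Npnt, a matrix protein of the duct that sustains Gdnf through an integrin, was at 0.37 (limma adjusted p = 0.119). Over these 20 genes the median was -0.04. The overlapping list of metanephric mesenchyme had 1 of 11 members lower (Six2), 0 higher and a median of -0.20, with 5 members above and 6 below 0. Its mean ran from 9.94 to 10.11 in Sox11-/- and from 10.12 to 10.22 in wildtype ridges. Gdnf was not compared with that list by a test.

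Genes that act upstream of Ret in the duct had 0 of 14 called, with 3 higher and 0 lower at an unadjusted p under 0.05. Lhx1 and Gata3, both also in the duct list, lay higher on every Sox11-/- array. Gata3, a transcription factor that activates Ret, had signals of 10.35, 10.38, 10.30 and 10.22 in Sox11-/- ridges, against 9.99, 10.08, 10.09 and 10.07 in wildtype ridges, a difference of 0.25 (SE 0.06, limma adjusted p = 0.0845). Tfap2a, an AP-2 factor, was at 0.20, and the retinoic acid receptor gene Rarb at -0.19 (limma adjusted p = 0.203 and 0.325). Of 13 genes that limit or permit budding 0 were called, with 1 higher and 1 lower at an unadjusted p under 0.05. Those were Fgf7, at 0.20 and below the olfactory receptor guide, and the receptor signalling inhibitor Spry1 at -0.17.

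Genes of 3 other tissues that a dissected ridge may hold were measured beside them. The gonad and coelomic list had 1 of 8 genes lower (Cbx2, a Polycomb subunit, at -0.48, limma adjusted p = 0.00648) and 0 higher. Erythroid genes had 0 of 9 called and a median of -0.22, and muscle genes 0 of 10 called and a median of 0.19. At an unadjusted p under 0.05, 4 erythroid genes were lower and 5 muscle genes higher. Myod1, Myf5, Myog, Myh3 and Myh7, which are 5 of the 10 muscle genes and include 3 of those 5, lay below the 95th percentile of the olfactory receptor genes. Whether these move with Ret was not tested.

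The genes whose array-to-array pattern was most like that of 3 members were found by Pearson's r between deviations from the genotype means over the 8 arrays, among 17300 named genes. For Ret these were Chd1l (0.981), Mrps31 (0.980) and Ago3 (0.963), with Spearman values of 0.976, 1 and 0.833. None of these 3 was called between genotypes (limma adjusted p from 0.581 to 0.725). For Gdnf they were Tmem86b (0.982), Zfp872 (0.978) and Acyp1 (0.977), also not called. For Gfra1 they were Scara5 (0.989), Cyp2j9 (0.986) and Prdx2 (0.984). Scara5 and Cyp2j9 rose in Sox11-/- ridges, with differences of 0.46 and 0.61 (limma adjusted p = 0.0150 and 0.0352), and Prdx2 was at -0.07. Between members, Ret and Gfra1 ran against each other within genotypes (r = -0.868, Spearman -0.738, and r = -0.755 without the 2 arrays farthest from the median of Gfra1). With so many genes and 8 arrays, high values of r are found for any gene, and they are given as a description.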

How the data were processed

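RNA of 8 samples was depleted of ribosomal RNA, amplified and labelled with biotin using Affymetrix kits, per the labels' protocols. The deposited table holds log2 signals that the authors made with RMA, and Partek is also listed, per the submitters' processing notes. Neither gives versions, settings or the genome build. The log2 scale was inferred from the range of values (4.30 to 14.62). RMA equalises the arrays, so a shift of all transcripts cannot be seen, and the number of arrays limits the precision. The limma p-values set each genotype difference against the spread between samples of the same genotype. Whether that is a spread between single embryos or between pools is not given.

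Of 27478 probe sets, 21103 had 1 gene symbol in the platform annotation. The one with the highest mean was kept for each of 19356 genes, with no filter on level. Limma 3.58.1 (R 4.3.3) was run on all genes with genotype as the only term (lmFit, eBayes, two-sided tests). Ret minus the mean of the duct list was compared by an exact permutation test. Simulated data with 19356 genes gave back 70% of 100 genes shifted by 0.5 and 94% of 100 shifted by 1, and 7 of 171 calls were false. Figures were drawn with matplotlib 3.10.9.

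The members and the 14 lists were chosen with earlier results of these data known. Together they name 173 genes, of which 160 were measured through a probe set of their own and 13 were not used here. Named are the 9 members, Sox11, called genes and genes among the 3 of lowest p in each list, and the 3 genes most like Ret, Gdnf and Gfra1. Sox10, Pax2, Pax8, Wnt11, Ncam1, Rarb, Cdh16, Phox2a, Tlx2, Myod1, Myf5 and Myh3 were named after their values were seen. Alternatives were 2 further normalizations, a filter at the 25th percentile of level, every probe set, the mean of probe sets, other variance models, weighted arrays, a replicate block, a covariate of Y-linked signal (mean of Eif2s3y, Kdm5d and Uty) and removal of each array. Samples with the same replicate number correlated at -0.165 to 0.0897 in their deviations from the genotype means, so the numbers were not taken as pairs.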

Additional observations from a re-analysis of the deposited data

Results flagged for a closer look

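Of 20 sets of 4 arrays examined (the 9 genes and Ret minus the duct mean, in each genotype), 1 had an array that stood apart: Gfra4 in Sox11-/- replicate 3, at 6.894, where the gap to the next array was 0.875 of the whole range (above Dixon's 95% critical value for 4 arrays). Chance gives such a result in about 1 in 20 sets. Without that array the difference in Gfra4 was -0.08, in the same direction and not past the threshold.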

How the results depend on the processing

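Under 18 alternatives the 9 differences kept their sign, except that Gdnf was 0.0079 without wildtype replicate 4, where its values ran from -0.133 to 0.0079 over removals of 1 array, and Nrtn was -0.0049 after a further quantile normalization and ran from -0.0133 to 0.0552 over removals. Artn has 17 alternatives, since the filter on level removed it. The 8 genes other than Ret missed the threshold throughout. Ret passed in 12 of 18. It missed without moderation of the variance (0.409, adjusted p = 0.0692 by an ordinary t-test, leaving 0 members called). It also missed in 5 of 8 removals of 1 array. Over these removals its difference ran from 0.377 to 0.449 and the count of members called from 0 to 1. With a replicate block Ret was at 0.409 (limma adjusted p = 0.0442). Over all genes 279 were called, against 55 without moderation, 166 with a replicate block, 151 with a covariate of Y-linked signal and 107 to 243 without 1 array (107 to 184 for each array but wildtype replicate 4). Ret minus the duct list stayed between 0.188 and 0.298, with exact permutation p-values from 0.0571 to 0.171 over 13 alternatives. The lowest came without wildtype replicate 2, where the genotypes no longer overlapped and the remaining 7 values allow no smaller p in that direction. Permuting within replicate numbers gave 0.125, the smallest p it allows, so neither could pass. Probes near the signal of genes that are off (Artn, and nearly so Pspn, Nrtn and Gfra4) limit what can be said of those genes, and 4 arrays a genotype limit the rest.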
